A study of Mus musculus with 4 samples.

Results

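The 10 genes described here bind, carry or chemically convert arsenic. They are the metallothioneins Mt1, Mt2 and Mt3, the aquaglyceroporins Aqp3, Aqp7 and Aqp9, the methyltransferase As3mt, the glutathione transferase Gsto1, and the exporters Abcc1 and Abcc2. They were chosen by symbol for these roles, and all 10 were found among the 56691 genes of the deposited table. RNA-seq was performed on 4 sarcomas that arose in W/+ mice, 2 from the ATO group (ATO 1 and ATO 2) and 2 from the PBS group (PBS 1 and PBS 2). ATO is arsenic trioxide, given at 35 mg per L of drinking water from day 90 of life, and the methods have treatment run until death, with moribund mice euthanized. All 4 sarcomas shared 1 mutant p53 allele, which the labels write as p53R282W/+ by the human residue. The comparison asked how arsenic-handling genes differed between sarcomas of mice that drank arsenic and of mice that did not.

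Several features limit these groups as a model. Each sarcoma was sequenced as whole tissue, and neither its subtype nor the age of the mouse at collection is given, while angiosarcomas, soft sarcomas and osteosarcomas all occur in the line. Nothing states that the sarcomas came from separate mice, so the p-values measure only the spread between these samples. The labels call the control treatment PBS where the paper's results call these mice untreated. For all 4 samples the labels also describe a culture medium that contained insulin, isobutylmethylxanthine and dexamethasone, on which the methods are silent. Dexamethasone is a glucocorticoid, a class of hormone known to induce Mt1 and Mt2.

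Metallothioneins are small cysteine-rich proteins that hold zinc, copper, cadmium and trivalent arsenic through their thiols, and in many tissues Mt1 and Mt2 are induced by metals through the zinc-sensing factor MTF1, which binds metal response elements in their promoters. Trivalent arsenic crosses membranes as an uncharged molecule through aquaglyceroporins, the water channels that also pass glycerol. As3mt then methylates it, Gsto1 can reduce pentavalent forms with glutathione, and Abcc1 and Abcc2 pump glutathione conjugates out of the cell.

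The promoters of the 3 metallothionein genes, which lie in 1 cluster, are shown because the metal response element, where MTF1 acts, lies in such windows. The sequences are from RefSeq on GRCm38.p6, plus strand, the 250 bases before each gene's start, and capitals mark matches to the metal response element core.
Mt1 promoter, chr8:94178839-94179088: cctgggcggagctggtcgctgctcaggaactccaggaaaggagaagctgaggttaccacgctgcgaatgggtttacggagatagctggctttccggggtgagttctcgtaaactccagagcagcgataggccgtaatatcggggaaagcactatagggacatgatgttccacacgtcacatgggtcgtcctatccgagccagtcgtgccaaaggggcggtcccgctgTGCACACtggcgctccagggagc
Mt2 promoter, chr8:94172368-94172617: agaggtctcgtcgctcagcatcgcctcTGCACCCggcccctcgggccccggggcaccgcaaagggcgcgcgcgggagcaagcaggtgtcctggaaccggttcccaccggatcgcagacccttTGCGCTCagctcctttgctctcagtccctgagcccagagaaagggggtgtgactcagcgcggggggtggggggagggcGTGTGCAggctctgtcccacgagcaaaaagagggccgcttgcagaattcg
Mt3 promoter, chr8:94152357-94152606: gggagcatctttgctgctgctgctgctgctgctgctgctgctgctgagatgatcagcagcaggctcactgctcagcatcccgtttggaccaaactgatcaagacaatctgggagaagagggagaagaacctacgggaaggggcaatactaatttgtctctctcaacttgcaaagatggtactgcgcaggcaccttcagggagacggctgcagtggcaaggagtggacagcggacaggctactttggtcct
The core was searched as TGCACNC and TGCGCNC on both strands in windows of 300 bases, which add the 50 bases after the start. Such windows were at hand for 9 of the 10 genes (not Abcc1). The Mt2 window held 4 matches, 3 of them in the part printed, and that of Mt1 held 3, 1 of them in the part printed. That of Aqp3 held 2 and that of Mt3 held 1, after the start, and the windows of the other 5 genes held 0. Among all 32851 windows, 25.7% held at least 1 match, 1.97% at least 3 and 0.517% at least 4. Later starts of Mt1 that GENCODE lists downstream were not covered by its window. The antioxidant response element core, searched as TGACNNNGC, had 1 match in the Mt2 window and 1 in that of Abcc2, and 12.4% of all windows held it. The 2 motifs did not overlap in the Mt2 window.

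The sequencing depth was similar, with total counts between 15259695 and 18134000. Reads of mitochondrially encoded genes were most frequent in ATO 2, at 14.7% of its counts, against at most 2.59% elsewhere. This touches the scale of every value below: FPKM, the count scaled to exon length and total count, divides by the total, while CPM here is the count relative to a TMM-scaled total, which corrects for a few very abundant genes. With the total count alone as the scale, the median log2 fold change of all tested genes was -0.28, against -0.016 with TMM. Mesenchymal genes were expressed throughout, with summed levels of 5 such genes between 1154 and 4765 FPKM. Of the 5, 2 were lower in both ATO sarcomas than in both PBS sarcomas. The share of all tested genes that lay below in this way was 29.6% in FPKM and 20.2% in CPM. Vim, the gene of the mesenchymal filament vimentin, had 131 and 272 FPKM with ATO and 581 and 812 with PBS, and Pdgfrb, a growth factor receptor gene, 36.2 and 23.7 against 98.6 and 70.8. Their part in the differences below was not tested. The keratins and other epithelial genes summed to between 2.31 and 14.0 FPKM.

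Mt1 and Mt2 were higher in both ATO sarcomas than in both PBS sarcomas, and Aqp7 was nearly undetected in the PBS sarcomas, but 0 of the 10 genes passed an adjusted p of 0.05. edgeR's quasi-likelihood test covered 9 of them, since Abcc2 had too few reads. Over all 17188 genes tested, 0 passed, which is 0% of them. At an unadjusted p under 0.05 stood 3 of the 9, Mt1, Mt2 and Aqp7, all higher with ATO, against 5.44% of all tested genes higher and 3.07% lower. DESeq2 called 714 genes, 4.15% of those tested, and 1 of the 9, Aqp7. In CPM, both ATO sarcomas lay above both PBS sarcomas for 4 of the 9 (Mt1, Mt2, Aqp7 and As3mt), against 19.7% of all tested genes, and below them for 0, against 20.2%. In FPKM they lay above for 3 (Mt1, Mt2 and Aqp7), against 12.8%, and below for 1 (Gsto1), against 29.6%. The fitted log2 fold change was positive for 7 and negative for 2, with a median of 1.00 over the 9 and of -0.016 over all tested genes. Aqp7 passed the filter on low counts only through its reads in the ATO sarcomas, so its place among the 9 is no support for a direction. With 2 sarcomas against 2, an exact two-sided permutation test of a single value cannot go below p = 0.33.

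**Figure D1:**
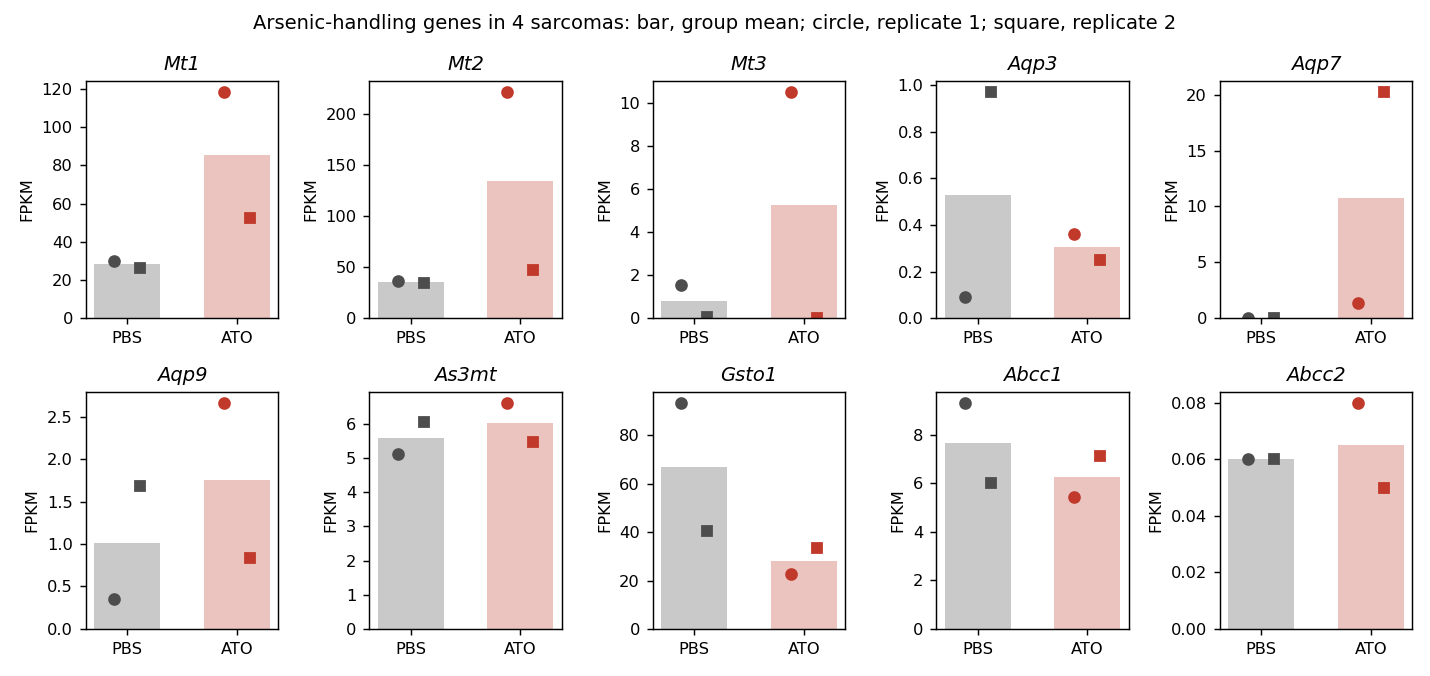
Expression of the 10 genes in each sarcoma. Each panel gives the FPKM of 1 gene (vertical axis, linear, own scale), with a bar for the mean of the 2 sarcomas of a group, a circle for replicate 1 and a square for replicate 2; Mt1, Mt2 and Aqp7 have both ATO sarcomas above both PBS sarcomas, and Gsto1 has both below.

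Among the metallothioneins, Mt1 (ENSMUSG00000031765, chr8:94179082-94180327, plus strand, GRCm38), which encodes a broadly expressed metallothionein, stood at 118 FPKM in ATO 1, 52.65 in ATO 2, 30.01 in PBS 1 and 26.44 in PBS 2. Both ATO sarcomas exceeded both PBS sarcomas, and ATO 1 was the highest. The mean was 113 ± 47.0 CPM (SD, n = 2) with ATO and 32.1 ± 3.19 CPM with PBS. Each ATO sarcoma had between 2.34 and 4.92 times the CPM of a PBS sarcoma. The log2 fold change was 1.82 (SE 0.46), with an adjusted p of 0.570 in edgeR, and it ran from 1.30 without ATO 1 to 2.20 without ATO 2. Among the genes of a library, Mt1 ranked 263rd by FPKM in ATO 1, 816th in ATO 2, 1620th in PBS 1 and 2028th in PBS 2.

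Mt2 (ENSMUSG00000031762, chr8:94172664-94173568, plus strand), the companion gene of Mt1, had 221 FPKM in ATO 1, 46.92 in ATO 2, 36.13 in PBS 1 and 34.92 in PBS 2. In FPKM the PBS sarcomas were nearly equal, ATO 2 was close above them, and ATO 1 stood far above the other sarcomas. In CPM ATO 2 had 1.73 times the level of PBS 1 and 1.81 times that of PBS 2. For ATO 1 these ratios were 6.64 and 6.97. The mean was 81.7 ± 67.8 CPM (SD, n = 2) with ATO and 19.1 ± 0.651 CPM with PBS. Its log2 fold change was 2.10 (SE 0.73; adjusted p = 0.570 in edgeR). Without ATO 1 it was 0.81 and without ATO 2 it was 2.77. A gene on the other strand, Gm45774, overlaps Mt2 and had between 12 and 119 counts, and reads of the 2 cannot be told apart where they overlap, because it is not stated whether the counting used strand.

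Mt1 and Mt2 together took 277.3 CPM of the unscaled total count in ATO 1 (exact 95% binomial interval 269.7 to 285.1) and 93.2 in ATO 2 (88.4 to 98.2). The values were 58.6 in PBS 1 (55.1 to 62.3) and 53.5 in PBS 2 (50.2 to 57.0). The intervals of ATO 1 and ATO 2 were apart from each other and from those of the PBS sarcomas, which overlapped. All 4 intervals cover counting error only and not the spread between tumours. The 2 genes did not keep a fixed proportion. The Mt2 level was 1.87 times that of Mt1 per length in ATO 1 (95% interval 1.77 to 1.98), 0.891 times in ATO 2 (0.793 to 1.00), 1.20 times in PBS 1 (1.06 to 1.37) and 1.32 times in PBS 2 (1.16 to 1.51). ATO 1 had the highest ratio and ATO 2 the lowest, and the PBS sarcomas lay between them.

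Mt3 (ENSMUSG00000031760, chr8:94152607-94154146, plus strand), known best as the metallothionein of the brain, was listed at 10.5 FPKM in ATO 1, 0 in ATO 2, 1.56 in PBS 1 and 0.05 in PBS 2. The counts behind these values were 203, 0, 29 and 1. A count of 0 allows up to 0.197 CPM in ATO 2, by a limit of 3 counts, above the 0.0504 CPM of PBS 2, so ATO 2 and PBS 2 could not be ordered, and ATO 1 was the highest. The log2 fold change of 2.82 (SE 2.52; adjusted p = 0.787 in edgeR) rested on ATO 1 alone and was -6.77 without it, while it was 6.60 without PBS 1. Its promoter window held 1 metal response element core, against 3 and 4 in those of Mt1 and Mt2. A match to these letters is a description of the window and not a measurement of MTF1 binding.

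The unrelated protein-coding genes beside the metallothioneins had fitted changes far smaller than those of Mt1 and Mt2, or a negative one. The noncoding Gm45774, which overlaps Mt2, had both ATO sarcomas above both PBS sarcomas, at 2.46 and 0.34 FPKM with ATO and 0.28 and 0.25 with PBS. The counts were 119 and 14 with ATO and 13 and 12 with PBS, so ATO 2 lay above by few reads only. Mt2 ends 5.51 kb before Mt1 and Mt3 ends 18.5 kb before Mt2. Of the tested genes within 100 kb that code for unrelated proteins, Ogfod1 had a log2 fold change of 0.17 and Bbs2, a cilium gene, of 0.15, with adjusted p of 0.924 and 0.947 in edgeR, and the signs turned to -0.098 and -0.11 with the total count as the scale. In CPM their ATO sarcomas lay narrowly above their PBS sarcomas, for Ogfod1 at 31.6 and 30.3 against 26.5 and 28.7, while in FPKM the groups overlapped. Nup93, a nuclear pore gene downstream of Mt1, had 8.63 and 5.71 FPKM with ATO and 17.62 and 12.91 with PBS, a log2 fold change of -0.84 (adjusted p = 0.625 in edgeR). Mt4, the metallothionein of stratified epithelium, had 0 counts in all 4 sarcomas.

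**Figure D2:**
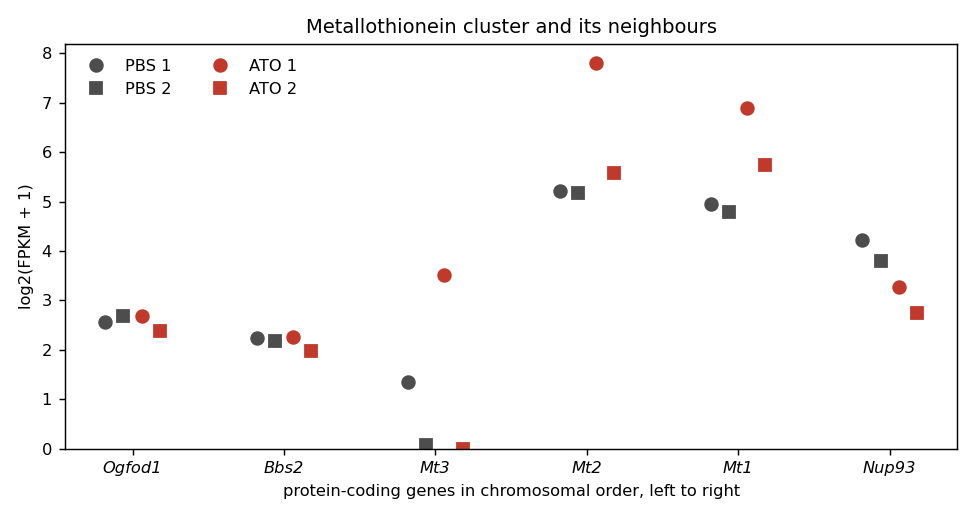
Levels across the metallothionein cluster of chromosome 8. The vertical axis is log2(FPKM + 1), each point is 1 sarcoma (circle, replicate 1; square, replicate 2), and genes are in their order on the chromosome; Mt2 and Mt1 separate the ATO from the PBS sarcomas upward, Ogfod1 and Bbs2 lie close together in all 4, and Mt3 is high in ATO 1.

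Markers of other tissues also differed between the sarcomas. Skeletal muscle genes summed to 14840 FPKM in ATO 1, 1021 in ATO 2, 7.16 in PBS 1 and 126 in PBS 2. All 8 were higher in both ATO sarcomas than in both PBS sarcomas, against 12.8% of all tested genes in FPKM and 19.7% in CPM. The muscle sum was thus highest where Mt1, Mt2 and Mt3 were highest. It was lowest in PBS 1, while Mt1 and Mt2 were lowest in PBS 2. The part of muscle in the metallothionein levels was not tested. In a bulk sample, fewer cells of a type and less RNA per cell cannot be told apart. Genes known to respond to glucocorticoids were examined because of the medium in the labels. Of 7 such genes, 2 had an unadjusted p under 0.05, both higher, against 5.44% of all tested genes, and 0 had an adjusted p under 0.05. With ATO 6 were fitted higher, against 49.2% of all tested genes (median log2 fold change 0.83), from -1.76 for Cdkn1c, a cell cycle inhibitor, to 3.80 (SE 1.04) for Zbtb16. Zbtb16, a transcription factor gene induced by glucocorticoids, had 30.33 FPKM in ATO 1, 3.77 in ATO 2, 1.69 in PBS 1 and 1.05 in PBS 2. Tsc22d3, which encodes the glucocorticoid-induced leucine zipper protein, had 177, 38.83, 18.93 and 35.52 FPKM in the same order. Both were highest in ATO 1, like Mt1 and Mt2. Fkbp5, at 50.42, 5.34, 35.76 and 15.74 FPKM, and Per1, at 32.77, 12.11, 23.81 and 22.15, were also highest in ATO 1. They were lowest in ATO 2, so their groups overlapped. In CPM 4 of the 7 lay above in both ATO sarcomas, against 19.7% of all tested genes, and 0 below, against 20.2%. The part of glucocorticoids in the metallothionein levels was not tested.

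The metal-sensing and zinc-transport genes around the metallothioneins differed less. Of 6 listed, 5 were tested and 0 had an unadjusted p under 0.05. With ATO 4 were fitted higher, against 49.2% of all tested genes, and 1 lower (median log2 fold change 0.28). Mtf1 itself had 3.70 and 2.72 FPKM with ATO and 3.07 and 3.24 with PBS, so the groups overlapped, whereas in CPM the ATO sarcomas were at 32.8 and 29.65 and the PBS sarcomas at 25.1 and 26.1, without overlap (log2 fold change 0.28, adjusted p = 0.859 in edgeR). In CPM 2 of the 5 lay above in both ATO sarcomas, Mtf1 and Slc39a14, against 19.7% of all tested genes. In CPM 1 lay below, Slc39a10, against 20.2%. In FPKM 0 lay above, against 12.8%, and 1 below, against 29.6%. Slc30a1, a zinc exporter gene that MTF1 also induces, had 6.7 and 4.0 FPKM with ATO and 3.43 and 5.68 with PBS (log2 fold change 0.48, adjusted p = 0.802 in edgeR), with overlap on both scales. The other 3 tested lay between a log2 fold change of -0.44 for Slc39a10 and 0.52 for Slc39a14, both zinc importers.

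Of the uptake channels, Aqp7 (ENSMUSG00000028427, chr4:41033074-41048139, minus strand), the glycerol channel of fat cells, was listed at 1.35 FPKM in ATO 1, 20.21 in ATO 2, 0 in PBS 1 and 0.02 in PBS 2. The counts were 69, 872, 0 and 1. Both ATO sarcomas were above both PBS sarcomas, and ATO 2 was far above ATO 1. Over the pooled counts of each group per total count the ratio was 999, with a 95% counting interval of 179 to 39480 that is wide because the PBS group held 1 count. The fitted log2 fold change was 10.13 (SE 2.18; adjusted p = 0.570 in edgeR). It was 6.89 without ATO 2 and 12.25 without PBS 2, and with so few PBS counts it depends on the fit. DESeq2 gave an adjusted p of 1.58e-05 and edgeR without a filter on low counts one of 0.00151, so whether Aqp7 passed depended on the test; over all alternatives its adjusted p ran up to 0.864.

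Fat genes, like Aqp7, were highest in ATO 2 and next in ATO 1. The 5 adipocyte markers summed to 229 FPKM in ATO 1, 1369 in ATO 2, 12.7 in PBS 1 and 66.2 in PBS 2. All 5 were higher in both ATO sarcomas than in both PBS sarcomas, against 12.8% of all tested genes in FPKM and 19.7% in CPM. The PBS sums were nearly all Fabp4, a fatty acid carrier gene, at 12.63 and 66.1 FPKM. Adipoq, the adiponectin gene, had 38.89, 191, 0.08 and 0.08 FPKM, and Plin1, which coats the lipid droplet, 5.28, 108, 0 and 0.01. The part of fat tissue in the Aqp7 level was not tested. Nor was that of the medium with insulin, isobutylmethylxanthine and dexamethasone, which the labels give for all 4 samples alike. The genes with the pattern nearest to Aqp7 over the 4 sarcomas, by the distance between log2(CPM + 1) profiles centred on their means, were Tmem45b and A530016L24Rik, followed by Ighv11-2, an antibody gene of a large family whose counts are uncertain. Tmem45b had 0.88, 11.32, 0 and 0.01 FPKM. The other 2 aquaglyceroporins were far down this order of 17187 genes, Aqp9 at place 6878 and Aqp3 at place 9407.

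**Figure D3:**
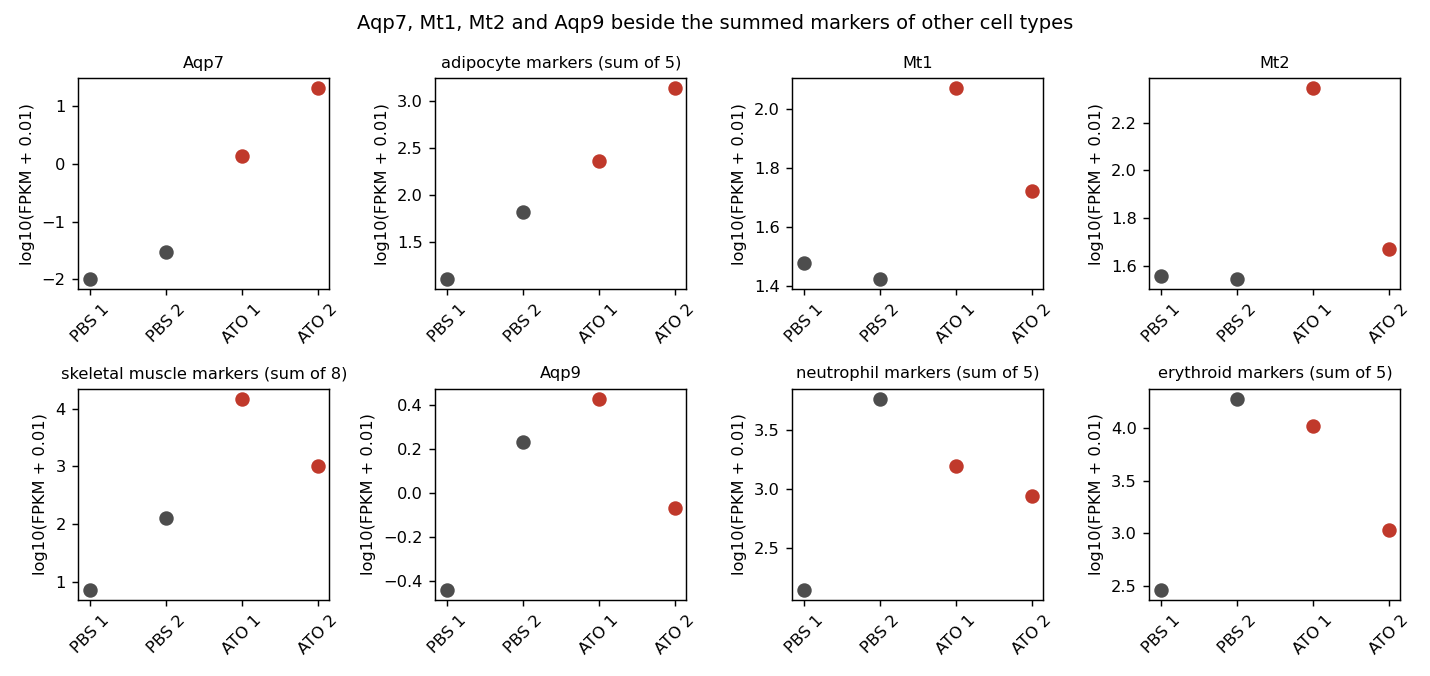
Aqp7, Mt1, Mt2 and Aqp9 beside marker sums of other cell types. Each panel gives 1 gene or the sum of 1 marker list, the vertical axis is log10(FPKM + 0.01) and each point is 1 sarcoma; the muscle sum is highest in ATO 1, as are Mt1 and Mt2, and the fat sum in ATO 2, as is Aqp7.

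Aqp9 (ENSMUSG00000032204, chr9:71110659-71168682, minus strand), the main aquaglyceroporin of liver and also expressed in neutrophils, had 2.66 FPKM in ATO 1, 0.84 in ATO 2, 0.35 in PBS 1 and 1.68 in PBS 2. The groups overlapped, with ATO 1 and PBS 2 high and the others low. The log2 fold change was 1.00 (SE 1.01; adjusted p = 0.810 in edgeR) and ran from 0.15 without ATO 1 to 2.53 without PBS 2. Neutrophil markers summed to 1557, 876, 139 and 5832 FPKM in ATO 1, ATO 2, PBS 1 and PBS 2, so PBS 1 was lowest for both, and their part in the Aqp9 level was not tested. The macrophage and leukocyte markers summed to 225, 349, 278 and 148 FPKM. The hepatocyte genes Alb and Ttr were near 0, with Alb at most at 0.54 FPKM. Aqp3 (ENSMUSG00000028435, chr4:41092722-41098183, minus strand), known from skin and kidney, was low, at 0.36, 0.25, 0.09 and 0.97 FPKM from counts of 12, 7, 3 and 32. Its groups overlapped, its log2 fold change was -0.53 (SE 1.20; adjusted p = 0.924 in edgeR), and the sign turned to 1.91 without PBS 2.

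The shares of the 3 aquaglyceroporins in their summed level therefore differed between sarcomas. In whole tissue such a sum does not tell which cells held each channel. The sum in PBS 1 rested on few reads, with counts of 25 for Aqp9, 3 for Aqp3 and 0 for Aqp7. The summed level of Aqp3, Aqp7 and Aqp9 was 4.37 FPKM in ATO 1, 21.3 in ATO 2, 0.44 in PBS 1 and 2.67 in PBS 2. Aqp7 made up 94.9% of this sum in ATO 2 and 30.9% in ATO 1, but 0% in PBS 1 and 0.749% in PBS 2. Aqp9 was the leading channel in the other 3 sarcomas, at 60.9% in ATO 1, 79.6% in PBS 1 and 62.9% in PBS 2. Aqp3 and Aqp7 lie 44.6 kb apart on chromosome 4 and did not share a pattern.

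The other aquaporins, most of which pass water but little glycerol, formed a list of 9, of which 5 were tested. At an unadjusted p under 0.05 stood 2, both higher with ATO, and 0 had an adjusted p under 0.05 (median log2 fold change 1.08), against 5.44% of all tested genes higher at that p. Of these, Aqp4 passed the filter on low counts only through the ATO sarcomas, with counts of 27 and 47 against 0 and 1. Aqp1, the water channel of endothelium and red cells, had 101 and 106 FPKM with ATO and 33.5 and 15.59 with PBS (log2 fold change 2.35, SE 0.58). The endothelial markers summed to 68.7 and 138 FPKM with ATO and 94.3 and 893 with PBS, the erythroid markers to 10620 and 1083 with ATO and 289 and 19120 with PBS, and their part in the Aqp1 level was not tested. Aqp4, a channel of brain and muscle, was low at 0.24 and 0.49 FPKM with ATO and 0 and 0.01 with PBS, and had the highest fitted log2 fold change, 6.32 (SE 1.33), while Aqp5, a channel of glands, had the lowest, -1.75. Of the other arsenic entry routes, phosphate and hexose transporters that pass arsenate or arsenite, 3 of 4 were tested. Slc20a1, a phosphate transporter gene, had a log2 fold change of -1.55 and an unadjusted p under 0.05 (adjusted p = 0.579 in edgeR), and Slc2a1, the glucose transporter gene, one of -1.57 (adjusted p = 0.730 in edgeR). Slc20a2, a second phosphate transporter gene, had one of 0.51. Without PBS 2 the value for Slc2a1 was -0.032.

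As3mt (ENSMUSG00000003559, chr19:46707458-46741099, plus strand), the enzyme of arsenic methylation, was at a steady level, with 6.61 FPKM in ATO 1, 5.47 in ATO 2, 5.12 in PBS 1 and 6.06 in PBS 2. In FPKM the groups overlapped, whereas in CPM the ATO sarcomas were at 21.1 and 21.5 and the PBS sarcomas at 15.1 and 17.6, without overlap. The log2 fold change was 0.38 (SE 0.42; adjusted p = 0.825 in edgeR), between 0.27 and 0.50 with any sarcoma left out. Gsto1 (ENSMUSG00000025068, chr19:47854970-47864790, plus strand), which links arsenic reduction to glutathione, had 22.79 FPKM in ATO 1, 33.46 in ATO 2, 93.4 in PBS 1 and 40.6 in PBS 2. Both ATO sarcomas were below both PBS sarcomas in FPKM, and PBS 1 was the highest. In CPM the values were 45.9, 82.8, 174 and 74.4, so ATO 2 exceeded PBS 2 and the groups overlapped. The log2 fold change was -0.95 (SE 0.60; adjusted p = 0.695 in edgeR) and -0.21 without PBS 1. The gene overlaps Cfap43 on the other strand, which had at most 82 counts.

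Glutathione synthesis, conjugation and methylation genes were the largest list around these enzymes. All 15 were tested and 0 had an unadjusted p under 0.05. With ATO 11 were fitted higher, against 49.2% of all tested genes, and 4 lower (median log2 fold change 0.30). In CPM 6 lay above in both ATO sarcomas, against 19.7% of all tested genes, and 0 below, against 20.2%. In FPKM 3 lay above, against 12.8%, and 3 below, against 29.6%. The extremes were Gstp2, whose near-identical copy Gstp1 makes its count uncertain, at a log2 fold change of 3.34, and Trmt112, a methyltransferase partner, at -0.35. Genes that rise in cells exposed to arsenite were listed too. Of 7, all tested, 0 had an unadjusted p under 0.05. In CPM 0 lay above in both ATO sarcomas, against 19.7% of all tested genes, and 0 below, against 20.2%. In FPKM 0 lay above, against 12.8%, and 1 below, against 29.6%. The 1 below was Srxn1, at 13.04 and 31.19 FPKM with ATO and 46.86 and 33.01 with PBS. They ranged from a log2 fold change of -0.63 for Nqo1, a quinone reductase, to 0.95 for Slc7a11, the cystine importer. Hmox1, the heme oxygenase of the oxidative stress response, had 88.09 FPKM in ATO 1, 409 in ATO 2, 117 in PBS 1 and 280 in PBS 2. ATO 1 was the lowest and ATO 2 the highest, and the log2 fold change of 0.70 (SE 0.99; adjusted p = 0.867 in edgeR) was -1.03 without ATO 2.

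Of the exporters, Abcc1 (ENSMUSG00000023088, chr16:14361558-14475737, plus strand), the exporter of glutathione conjugates in most tissues, had 5.43 FPKM in ATO 1, 7.11 in ATO 2, 9.31 in PBS 1 and 6.02 in PBS 2, so the groups overlapped. The mean was 106 ± 35.03 CPM (SD, n = 2) with ATO and 106 ± 33.1 CPM with PBS, and the log2 fold change was 0.01 (SE 0.47; adjusted p = 0.996 in edgeR), or -0.29 with the total count as the scale. An SE of this size allows changes in either direction. Abcc2 (ENSMUSG00000025194, chr19:43782192-43840740, plus strand), the exporter of the bile canaliculus, had 13 and 6 counts with ATO and 9 and 9 with PBS, at most 0.08 FPKM. The CPM were 0.714 and 0.481 with ATO and 0.473 and 0.453 with PBS, and no difference was detectable at this depth. Of 8 other ABC exporters, 7 were tested and 0 had an unadjusted p under 0.05. They ranged from a log2 fold change of -0.88 for Abcb1b, a multidrug exporter, to 1.00 for Abcg2, an exporter of drugs and urate.

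**Figure D4:**
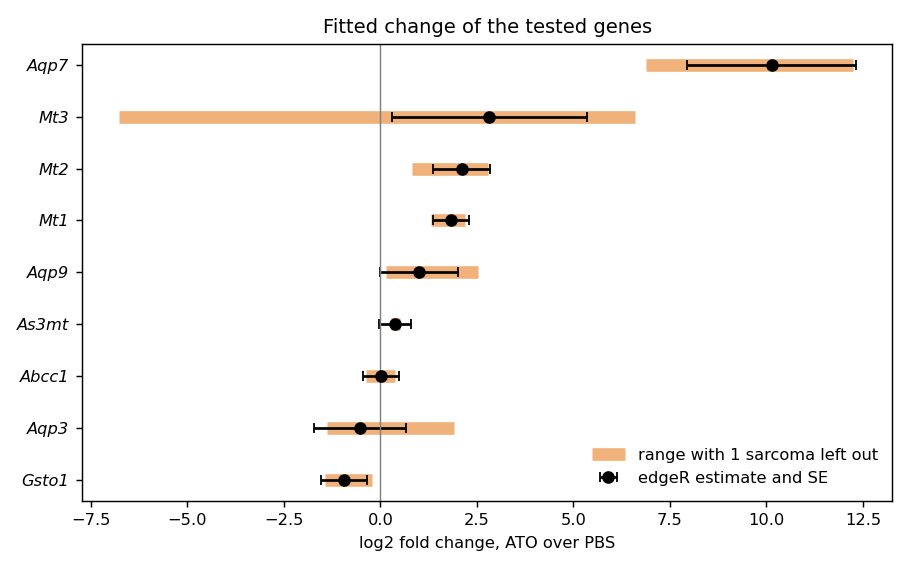
Log2 fold changes (ATO over PBS) of the 9 tested genes in edgeR. Points are the fitted values, error bars 1 SE, and the wide bars the range when each sarcoma is left out in turn; Mt1, Mt2, Aqp7, Aqp9 and As3mt stay above 0 throughout and Gsto1 below, while Mt3, Aqp3 and Abcc1 cross 0.

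**Figure D5:**
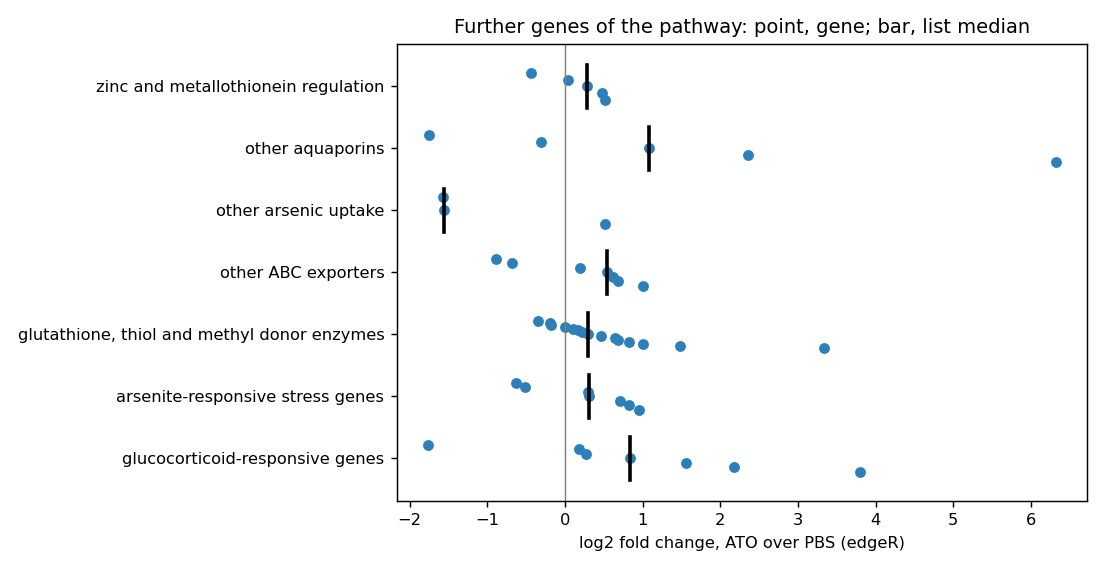
Log2 fold changes of the 7 lists of related genes. Each point is 1 tested gene, the bar is the median of its list and the axis is the log2 fold change (ATO over PBS); the other aquaporins and the glucocorticoid-responsive genes have the highest medians, 1.08 and 0.83, and the other uptake routes the lowest, -1.55.

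Per length, the order of mean levels in the PBS sarcomas was Gsto1, Mt2, Mt1, Abcc1 and As3mt, with the other 5 genes below 2 FPKM in each. Abcc1 and As3mt, neighbours in this order, did not differ beyond their spread, at 6.02 and 6.06 FPKM in PBS 2. With ATO the order opened with Mt2 and Mt1 in ATO 1 and with Mt1 and Mt2 in ATO 2, so these neighbours changed place between the sarcomas, and both were above Gsto1 in each. The genes nearest to Mt1 by the distance used for Aqp7 were Gm38560, Lamc3, a laminin chain gene, and Klra13-ps. They had at most 0.789 CPM in the PBS sarcomas, where the added 1 CPM shrinks differences. Their log2 fold changes were 3.35, 2.90 and 5.45, against 1.82 for Mt1, so a near place was not a like fold change. Klra13-ps had 0 FPKM in PBS 1 and 0.11 in PBS 2, the reverse order of Mt1. Mt2 came at place 205 of 17187, with a log2 fold change of 2.10, nearer to that of Mt1. Lamc3 had 1.17 and 0.36 FPKM with ATO and 0.14 and 0.09 with PBS, in the same order of sarcomas as Mt1 and at a far lower level.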

How the data were processed

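RNA-seq of 4 sarcomas was analysed, with groups taken from the treatment label. The authors removed adapters with Cutadapt 1.9.1, mapped reads with HISAT2 2.0.1 (versions per the submitters' processing notes), counted them with HTSeq, and deposited raw read counts per gene. The authors also deposited FPKM, which equal the count divided by exon length and total count to within 0.005. Whether counting used strand, and how reads with several alignments were treated, is not given in the sources used here. The methods name GRCm38, but 1472 of 52073 genes shared with GENCODE M21 (2.83%) have its position, so positions are from GENCODE M21 by identifier. Genes without a symbol, 2639 in all, stayed in the tests. The labels and the methods name different RNA and library kits.

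The test was the quasi-likelihood F-test of edgeR 4.0.16 under R 4.3.3 (TMM factors, filterByExpr, Benjamini-Hochberg adjustment over 17188 genes, threshold 0.05), after a trial on simulated data. Nothing in the labels pairs sarcomas of the same number. Alternatives were DESeq2 1.42.0, other scalings and filters, limma 3.58.1 on log2(FPKM + 1) and log2(FPKM + 0.1), a replicate block and each sarcoma left out. Leaving out sarcomas in the counts of genes above or below was chosen after seeing the data. A limit of 3 counts corresponds to between 0.165 and 0.197 CPM, and limits and intervals cover counting error only. The genes named are the 10 members, the genes with the highest and lowest change of each list of related genes, Mtf1, Slc30a1 and Hmox1, and the 3 genes nearest in pattern to Mt1 and to Aqp7. Aqp1, Slc20a1, Srxn1, Fkbp5, Per1, Tsc22d3, the fat markers, Vim, Pdgfrb and the genes beside or overlapping members were named after their values were seen. The members and lists were chosen with earlier results of these data known.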

Additional observations from a re-analysis of the deposited data

How the results depend on the processing

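With 2 sarcomas a group and a biological coefficient of variation of 62.5%, the spread between tumours limits these comparisons more than the counts do. While edgeR called 0 genes (1463 at an unadjusted p under 0.05), DESeq2 called 714 of 17188 (4.15%). Without a filter on low counts edgeR called 541 of 30859. In the DESeq2 fit and the fit without a filter 1 of the 10 genes, Aqp7, passed. Of the 49 tested genes of the related lists, 3 passed with DESeq2, against 4.15% of all tested genes. By DESeq2 these were Aqp1 (adjusted p = 0.0154), Aqp4 (0.0132) and Zbtb16 (0.00547). In edgeR without a filter 2 of the 49 passed, Aqp4 (adjusted p = 0.0437) and Zbtb16 (0.0158), beside the 541 of 30859 genes. Of the 9 tested genes, 1 lay below in both ATO sarcomas in FPKM and with the total count as the scale, Gsto1, against 0 in CPM with TMM. With 1 sarcoma left out, between 1 and 2 of the 9 lay below and between 4 and 6 above. Groups separate more easily with fewer sarcomas, and no share over all tested genes was taken for these counts. The correlation of deviations between sarcomas of the same number was -0.02, and with a replicate block 0 genes and 0 of the 10 passed. The block turned Aqp3 to 0.12 and Slc7a11 to -1.01 (log2 fold change).

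Directions that turned are given as log2 fold changes, and the cause was not tested. Abcc1, at 0.01, became -0.29 with the total count as the scale, -0.019 without a filter, -0.24 with limma on log2(FPKM + 1) and -0.27 on log2(FPKM + 0.1). With the total count as the scale and the 2 limma fits, in this order, Ogfod1 became -0.098, -0.090 and -0.11, and Bbs2 -0.11, -0.092 and -0.12. Slc20a2 became -0.011 and -0.052 with the 2 limma fits, and Slc7a11 -0.73 with the second. With each sarcoma left out in turn, Mt3 ran from -6.77 (without ATO 1) to 6.60, Aqp3 from -1.39 to 1.91 (without PBS 2), and Abcc1 from -0.37 (without ATO 2, and -0.28 without PBS 2) to 0.37. Hmox1 ran from -1.03 (without ATO 2) to 1.46, Slc7a11 from -5.47 (without ATO 2) to 3.01, Slc20a2 from -0.75 (without ATO 1) to 1.17 and Nqo1 from -1.30 to 0.21 (without PBS 2). Without PBS 1 the sign turned for Aqp5 (range -10.78 to 1.91), Cdkn1c (-2.70 to 1.91) and Trmt112 (-0.63 to 0.0052). Over the fold changes run under these alternatives, 522 values kept direction and call, 26 changed direction and 19 gained a call, all with DESeq2 or without a filter.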
